A study of Mus musculus with 6 samples.

Results

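Calr4 and 9 genes of protein folding in the endoplasmic reticulum (ER) were examined in the vomeronasal organ (VNO) of AP-2e null and wild-type mice. The 10 genes were taken by symbol, because basal sensory neurons of the organ are rich in ER, and where several probe sets exist for a gene the brightest on average was to be used. A probe set annotated to that gene alone was found for 9 of the 10, with 1 such probe set each, out of 22180 genes measured in this way. Pdia4 had no probe set of its own, since its probe set is also annotated to the microRNA Mir704, and it is given apart.

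The VNO is a chemosensory organ of the nasal septum for pheromones and other social cues. Samples were isolated VNOs taken at postnatal day 17 from AP-2e null mice, which lack the transcription factor AP-2e encoded by Tfap2e (3 samples), and from wild-type mice (3 samples), with 1 array per sample. The design sets the genotypes directly against each other, and the mice had no other treatment in the labels. How the null allele was made, the strain and sex of the mice, and how many animals went into a sample stand in none of the labels. The labels call the replicates biological, and p-values measure the spread between these samples, 3 per genotype. Values are log2 signals of the deposited table, so that 1 unit is a factor of 2. In a bulk sample, fewer cells of a type and less RNA per cell cannot be told apart.

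Membrane and secreted proteins fold in the ER with the help of chaperones. Calnexin and calreticulin hold newly made glycoproteins through their sugars, protein disulfide isomerases form and shuffle disulfide bonds, and the Hsp70 and Hsp90 proteins of the ER bind unfolded stretches. Unfolded protein in the ER sets off the unfolded protein response, whose transcription factors XBP1 and ATF6 raise the genes of these chaperones. In the mouse VNO, Calr4 has been described as the calreticulin homologue enriched in the organ, and calreticulin itself as limiting the surface display of V2R pheromone receptors in cultured cells.

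Most members have a promoter feature in common. They were chosen as genes of ER folding and its stress response, which ATF6 raises, so its frequency among them is no independent result. The ER stress response element, the letters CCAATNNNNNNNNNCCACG searched on both strands, is the site through which ATF6 acts together with the factor NF-Y, and it contains a CCAAT box. In RefSeq promoters of build GRCm38.p6, it lay within 250 bases before the start of 6 of the 10 members. Of all 32851 promoters of that length, 37 (0.113%) held it, those of the members included. The elements are shown because they set Calr4 beside the general chaperones. They are written from the CCAAT end, with the CCAAT and CCACG boxes in capitals.
Calr4, chr4:109218238-109218256 (175 to 157 bases before the start, opposite strand): CCAATggttggggaCCACG
Calr, chr8:84847075-84847093 (162 to 144 bases before the start, opposite strand): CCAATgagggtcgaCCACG
Canx, chr11:50325800-50325818 (145 to 127 bases before the start, same strand as the gene): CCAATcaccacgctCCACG
Hspa5, chr2:34772025-34772043 (65 to 47 bases before the start, same strand as the gene): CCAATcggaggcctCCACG
Hsp90b1, chr10:86705638-86705656 (212 to 194 bases before the start, same strand as the gene): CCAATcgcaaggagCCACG
Hsp90b1, chr10:86705533-86705551 (107 to 89 bases before the start, opposite strand): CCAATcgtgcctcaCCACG
Pdia6, chr12:17266491-17266509 (98 to 80 bases before the start, same strand as the gene): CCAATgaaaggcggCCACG
Hsp90b1 held 2 copies, and Pdia3, Pdia4, Dnajb9 and Xbp1 held none in this window. In Calr4 and Calr the element lay at similar distances from the start, in both on the strand opposite to the gene. Calr4 has 4 annotated promoters, of which the first, at the start of the annotated gene, held the element. The promoters of Calr4 and its paralogue Calr are shown whole, read along the gene's strand, with the element in capitals.
Calr4 promoter, chr4:109218163-109218412 (+ strand): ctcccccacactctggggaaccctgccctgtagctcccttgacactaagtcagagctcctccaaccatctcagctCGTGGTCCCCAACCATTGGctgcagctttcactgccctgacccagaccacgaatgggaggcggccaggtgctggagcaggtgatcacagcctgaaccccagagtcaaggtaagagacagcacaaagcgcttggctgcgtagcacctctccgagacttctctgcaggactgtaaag
Calr promoter, chr8:84846932-84847181 (- strand): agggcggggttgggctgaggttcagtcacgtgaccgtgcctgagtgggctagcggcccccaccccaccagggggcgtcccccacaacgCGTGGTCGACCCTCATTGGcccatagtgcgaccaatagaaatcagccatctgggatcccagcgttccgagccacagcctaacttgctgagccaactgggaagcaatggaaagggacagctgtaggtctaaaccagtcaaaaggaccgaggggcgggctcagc
The letters GCCNNNGGC, a common form of the AP-2 binding motif, stood in the first promoter of 2 members, Pdia6 and Dnajb9, in 0 of the 4 Calr4 promoters and in 13.7% of all promoters, counting both strands. A match of letters is a description and not a bound site.

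Before the members, 3 arrays need mention. AP-2e null replicate 1 had an Xist log2 signal of 10.64, against 3.55 to 3.58 on the other 5 arrays. Its Y-linked genes Kdm5d, Uty and Eif2s3y were low, at 3.03, 2.56 and 3.62, against 5.51 to 8.29 on the others. By these signals this sample was female and the other 5 were male, so sex was not balanced between the genotypes. On AP-2e null replicate 2 the mean of 12 cartilage genes was 7.96, against 5.86 to 6.18 on the others. Wild-type replicate 3 had the lowest mean correlation with the other arrays across probe sets (r = 0.973, against 0.978 to 0.981). Markers of VNO neurons were present on every array: Omp, the marker of mature sensory neurons, lay between 9.46 and 10.48, above each array's upper quartile of about 7, and the channel gene Trpc2 lay between 6.75 and 7.08. The targeted gene Tfap2e had log2 signals of 5.97, 6.09 and 6.04 in AP-2e null VNOs, against 6.46, 6.76 and 6.92 in wild-type VNOs, without overlap (adjusted p = 0.431 in limma). In limma, with adjustment over all 22180 genes, 48 genes were lower and 2 higher in AP-2e null VNOs at an adjusted p under 0.05. This is 0.225% of the genes, and 0 of the 9 measured members were among them.

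Calr4, the calreticulin homologue of the organ, was lower in AP-2e null VNOs by a factor of about 2, and it was the member with by far the largest difference, although its adjusted p missed the threshold. Its log2 signal was 7.93, 7.88 and 8.01 on the 3 AP-2e null arrays, against 8.88, 8.87 and 9.36 on the 3 wild-type arrays. All AP-2e null arrays thus lay below all wild-type arrays, and wild-type replicate 3 stood above the other wild-type arrays. The means were 7.94 ± 0.06 in AP-2e null VNOs and 9.03 ± 0.28 in wild-type VNOs (SD, n = 3 each), a difference of -1.10 (SE 0.15, 95% interval -1.46 to -0.73). This is 2.14-fold lower, with an unadjusted p of 0.000412 and an adjusted p of 0.141 in limma. In absolute size the difference exceeded that of 99.4% of all genes. Counted from the lowest, it was the 99th difference of 22180, and 72 of those 99 genes were V2R receptor genes.

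The Calr4 difference did not rest on a single array, but its side of the threshold did. Without wild-type replicate 3, where Calr4 was highest, the difference was -0.93 and passed (adjusted p = 0.0384 in limma). Without AP-2e null replicate 1, the array with Xist signal, it was -1.09 (adjusted p = 0.687), and without AP-2e null replicate 2, the array with high cartilage genes, it was -1.07 (adjusted p = 0.711).

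**Figure D1:**
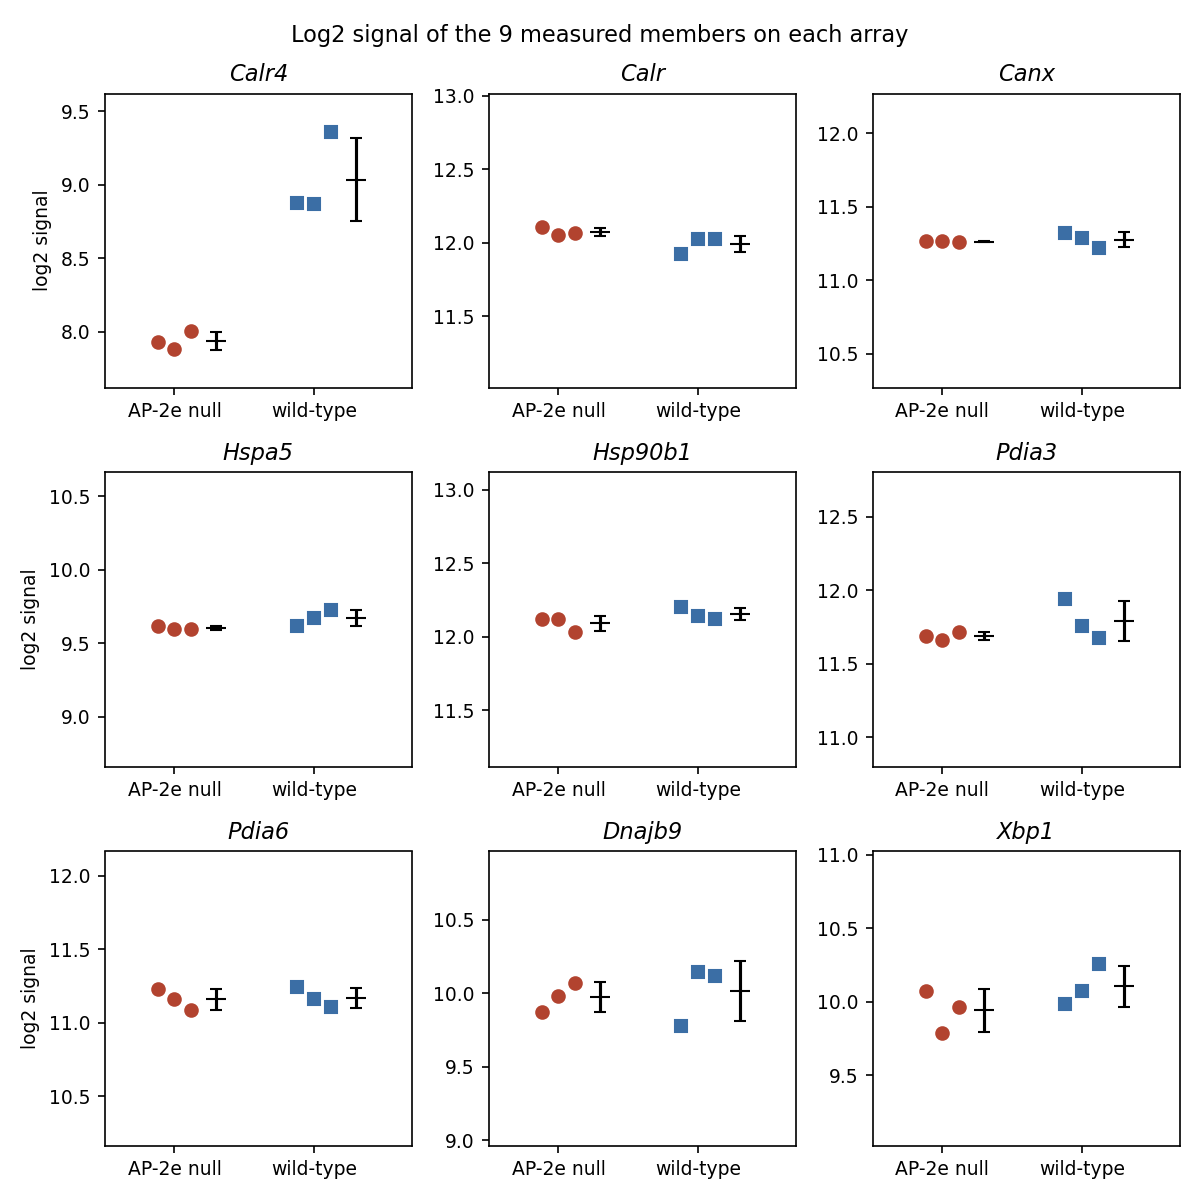
Log2 signal of the 9 measured members on each array, AP-2e null (red circles) left of wild-type (blue squares), with the mean and SD of 3 arrays as black bars. Every panel spans 2 log2 units. The genotypes stand more than 0.8 apart for Calr4, and within about 0.2 of each other on average for the other 8 genes.

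Calr, which encodes calreticulin, the calcium-binding lectin chaperone of the ER lumen, did not share the Calr4 difference. Its log2 signal was 12.11, 12.05 and 12.07 in AP-2e null VNOs, against 11.93, 12.03 and 12.02 in wild-type VNOs. The AP-2e null arrays lay just above the wild-type arrays, by a mean difference of 0.08 (SE 0.05, 95% interval -0.05 to 0.22, adjusted p = 0.873 in limma). On each array, Calr4 minus Calr was -4.18, -4.17 and -4.06 in AP-2e null VNOs, against -3.05, -3.16 and -2.66 in wild-type VNOs. That quantity differed by -1.18 between the genotypes (exact 2-sided permutation p = 0.1 over 20 arrangements, the smallest that 3 against 3 allows).

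Canx encodes calnexin, the membrane-bound partner of calreticulin in holding glycoproteins. Its log2 signal was 11.26, 11.26 and 11.26 in AP-2e null VNOs, against 11.32, 11.29 and 11.22 in wild-type VNOs. The wild-type arrays lay on both sides of the AP-2e null arrays, and the difference was -0.01 (SE 0.05, 95% interval -0.14 to 0.12). Pdia3, the disulfide isomerase that works on glycoproteins bound to both lectins, had 11.69, 11.66 and 11.71 in AP-2e null VNOs, against 11.94, 11.76 and 11.67 in wild-type VNOs. The groups overlapped, wild-type replicate 1 was the highest array, and the difference was -0.10 (SE 0.08, 95% interval -0.31 to 0.10).

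The general chaperones of the ER lumen were close between genotypes. Hspa5, which encodes the ER Hsp70 protein BiP, had 9.62, 9.59 and 9.60 in AP-2e null VNOs, against 9.62, 9.67 and 9.73 in wild-type VNOs. The groups did not overlap, but by less than 0.001 between the nearest arrays, and the difference was -0.07 (SE 0.05, 95% interval -0.20 to 0.06, adjusted p = 0.873 in limma). Hsp90b1, which encodes the ER Hsp90 protein GRP94, had 12.12, 12.12 and 12.03 in AP-2e null VNOs, against 12.20, 12.14 and 12.12 in wild-type VNOs. The highest AP-2e null array and the lowest wild-type array had the same value, and the difference was -0.06 (SE 0.06, 95% interval -0.20 to 0.07).

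Pdia6, a disulfide isomerase that binds BiP, had 11.23, 11.16 and 11.09 in AP-2e null VNOs, against 11.24, 11.16 and 11.11 in wild-type VNOs. The groups covered almost the same range, with a difference of -0.01 (SE 0.07, 95% interval -0.17 to 0.15). The probe set annotated to both Pdia4, another disulfide isomerase, and Mir704 had 8.31, 8.30 and 8.21 in AP-2e null VNOs, against 8.23, 8.27 and 8.22 in wild-type VNOs. Its groups overlapped, with a difference of 0.03 (SE 0.06, 95% interval -0.12 to 0.19), and the share of each gene in that signal is not known.

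The remaining members belong to the unfolded protein response. Dnajb9 encodes ERdj4, a J-domain partner of BiP and a target of XBP1. It had 9.87, 9.98 and 10.07 in AP-2e null VNOs, against 9.78, 10.15 and 10.12 in wild-type VNOs, which overlapped and differed by -0.04 (SE 0.12, 95% interval -0.34 to 0.26). Xbp1, whose mRNA is spliced by the sensor IRE1 to make the active factor, had 10.08, 9.79 and 9.96 in AP-2e null VNOs, against 9.99, 10.08 and 10.26 in wild-type VNOs. These overlapped too, and the difference of -0.16 (SE 0.11, 95% interval -0.43 to 0.10) was the lowest among the members after Calr4. The table has 1 value for Xbp1 and does not separate its spliced and unspliced forms.

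Of the 9 members, 8 had a lower mean in AP-2e null VNOs, against 50.3% of all genes, and the median difference was -0.06, against -0.00052 over all genes. With an unadjusted p below 0.05 in limma, 1 member was lower, Calr4, and 0 were higher, against 2.49% and 1.9% of all genes. Groups that did not overlap were seen for 2 lower members, Calr4 and Hspa5, and 1 higher one, Calr, against 3.64% and 3.42% of all genes. The range over all 6 arrays was 1.48 for Calr4 and between 0.10 for Canx and 0.47 for Xbp1 for the others. For all 8 members other than Calr4, the 95% interval excluded a change of 1.5-fold in either direction, as it did for 78.7% of all genes. The widest of these intervals on the lower side, that of Xbp1, reached a signal of 0.742 times wild-type.

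**Figure D2:**
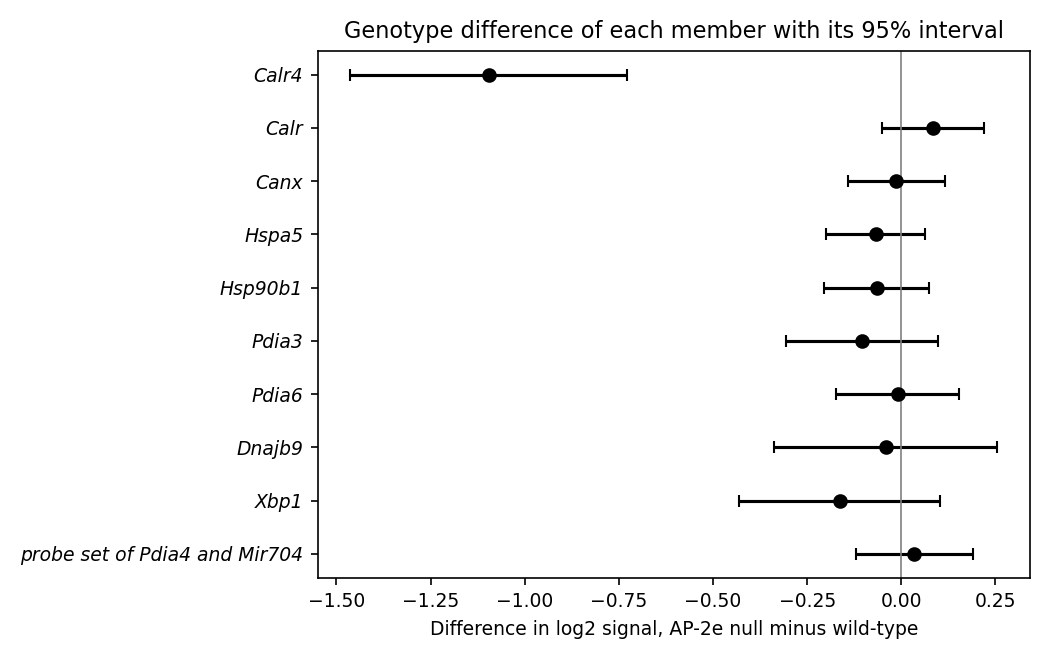
Difference in log2 signal, AP-2e null minus wild-type, of the 9 measured members and of the probe set shared by Pdia4 and Mir704, with 95% intervals from limma (3 arrays per genotype). The interval of Calr4, -1.46 to -0.73, lies apart from all others, each of which includes 0.

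Calr4 was set against every other member in the same way as against Calr. The change in Calr4 minus the other gene, AP-2e null minus wild-type, lay between -1.18 for Calr and -0.93 for Xbp1, and the groups overlapped for none of the 8 pairs. The lack of overlap was fixed by Calr4, which is part of every pair. Calr4 was at most 8.01 in AP-2e null VNOs and at least 8.87 in wild-type VNOs. No other member ranged over more than 0.47 (Xbp1) across the arrays. The exact 2-sided permutation p, 0.1 for each pair, thus restates the Calr4 difference and is no further test of it. Adjustment could not alter it, since all 11 pairs computed, which include 3 against Omp, Gnao1 and V2R family C, had that value.

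Most signals of basal neurons were lower in AP-2e null VNOs, as Calr4 was, and their part in its difference was not tested. V2R family C, the co-receptor genes that basal neurons express beside another V2R, had a mean of 6.19, 6.05 and 5.92 in AP-2e null VNOs, against 7.96, 7.82 and 7.67 in wild-type VNOs. Near-identical receptor genes can share probes, so their single values are uncertain. Gnao1, the G protein subunit of basal neurons, had 9.79, 9.88 and 9.90 in AP-2e null VNOs, against 10.45, 10.38 and 10.77 in wild-type VNOs (difference -0.68, adjusted p = 0.331 in limma). Of all genes, 3.64% were lower and 3.42% higher without overlap. Of 4 basal markers that are no receptors, 3 were lower without overlap (Gnao1, Robo2 and Kirrel3), while Gng8 differed by 0.06. Of 7 genes used by both neuron classes, 3 were lower without overlap too: Omp by -0.41, Ano2 by -0.40 and, narrowly, Gnb1 by -0.10. The other genes of both classes overlapped, with Cnga4 at -0.11, Trpc2 at -0.04, Reep1 at 0.05 and Ano1 at 0.06. Omp was highest on wild-type replicate 3, as Calr4, Gnao1, Robo2 and Kirrel3 were. The V2R family C mean was instead lowest there among the wild-type arrays, at 7.67. Gng8 was lowest there of all arrays, at 9.46. Of 7 apical markers the median difference was 0.08. Gng2 and Meis2 were higher without overlap (0.36 and 0.26) and Kirrel2 lower without overlap (-0.35), none of them past the threshold.

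Calr4 was also set against Omp, Gnao1 and the V2R family C mean on the same array. Calr4 minus Omp was -1.94, -1.58 and -1.78 in AP-2e null VNOs, against -1.05, -1.06 and -1.12 in wild-type VNOs, a difference of -0.69. Calr4 minus Gnao1 was -1.86, -2.00 and -1.89 in AP-2e null VNOs, against -1.57, -1.51 and -1.41 in wild-type VNOs, a difference of -0.42. Against the mean of V2R family C the sign was opposite: Calr4 minus that mean was 1.74, 1.83 and 2.09 in AP-2e null VNOs, against 0.92, 1.05 and 1.69 in wild-type VNOs, a difference of 0.67. Each of these 3 quantities, chosen after seeing the data, was without overlap and had an exact 2-sided permutation p of 0.1. Calr4 was thus lower by more than Omp and Gnao1, and by less than the mean of family C. Single family C genes differed by -2.97 to -0.97, a range that includes the difference of Calr4.

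The 5 genes whose profile over the 6 arrays was most like that of Calr4 were Vmn2r89, H2-M10.5, Stbd1, Cnpy1 and Vmn2r126. Likeness was the root mean square difference of log2 signals after subtraction of each gene's mean, among genes at or above the median level, and it lay between 0.140 and 0.178 for these 5. Vmn2r89 and Vmn2r126 are V2R genes, and H2-M10.5 is an MHC class Ib gene of the kind expressed in basal neurons. Stbd1 encodes a glycogen-binding membrane protein, and Cnpy1 belongs to the canopy family of ER proteins. Their differences, which the choice fixes and which are given without a test, were -0.88 for Vmn2r89, -1.07 for H2-M10.5, -0.89 for Stbd1, -0.91 for Cnpy1 and -1.40 for Vmn2r126.

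**Figure D3:**
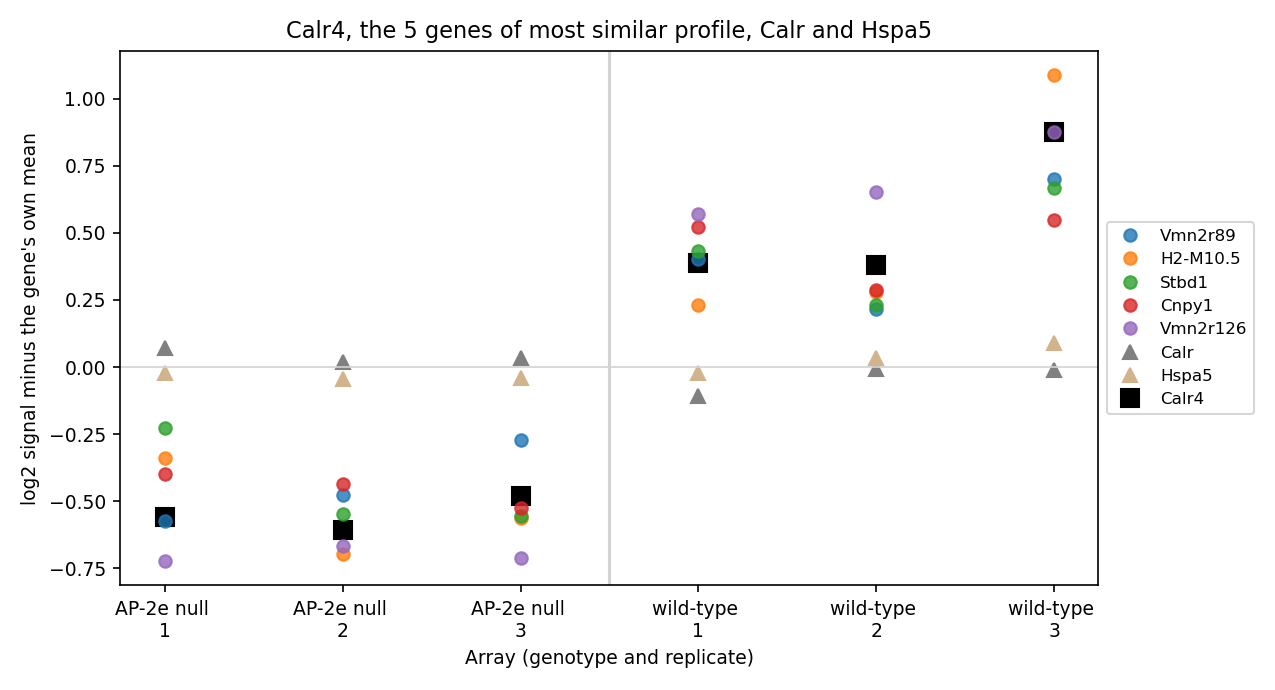
Log2 signal minus the gene's own mean over 6 arrays, by array, for Calr4 (black squares), the 5 genes of most similar profile (circles), Calr and Hspa5 (triangles). Calr4 and the circles lie below 0 on all AP-2e null arrays and above 0 on all wild-type arrays, while Calr and Hspa5 stay within 0.11 of 0.

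Calr4 lies on chromosome 4, as Tfap2e does. Of the 10 measured genes nearest to Calr4 on that chromosome, 5 on each side in the RefSeq gene table, 7 had a lower and 3 a higher mean in AP-2e null VNOs, and 0 passed the threshold in limma. With an unadjusted p under 0.05 there were 2, both lower and without overlap, against 2.49% of all genes that were lower at that p and 3.64% that were lower without overlap. Osbpl9, which encodes a lipid transfer protein and is the nearest measured gene on the lower side, had 9.36, 9.33 and 9.19 in AP-2e null VNOs, against 9.59, 9.55 and 9.90 in wild-type VNOs (difference -0.38, adjusted p = 0.873). Rnf11, a RING finger gene, differed by -0.33 (adjusted p = 0.873). Eps15, the nearest on the other side, differed by 0.01.

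The other ER genes that were listed differed little between genotypes. Across 9 lists with 143 measured genes beside the members, 0 genes passed over all genes in limma, also in each of the 15 alternative fits. The lists are not complete. They hold Cnpy2, Cnpy3 and Cnpy4 of the canopy family but leave out Cnpy1, which differed by -0.91 and passed (adjusted p = 0.0386 in limma). With an unadjusted p below 0.05, 5 genes were lower and 1 was higher, 3.5% and 0.699% of the 143, against 2.49% and 1.9% of all genes. The mean was lower for 85 of the 143 and higher for 58, where 50.3% of all genes were lower. Groups did not overlap for 7 lower genes and 1 higher one, against 3.64% and 3.42% of all genes. The median difference was -0.01 and the largest in absolute size was 0.38. For 134 of the 143 genes (93.7%, against 78.7% of all genes) the 95% interval excluded a change of 1.5-fold. These include dim genes, where a change could hardly show, such as Ryr3 at 3.93 on every array and Erp27 with a wild-type mean of 4.12.

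Of 13 genes of the lectin folding cycle, 0 passed and 1 had an unadjusted p under 0.05. This was Clgn, a calnexin homologue known from the testis, at 9.82, 9.80 and 9.87 in AP-2e null VNOs, against 10.14, 9.90 and 10.19 in wild-type VNOs. Its groups did not overlap, with a difference of -0.25 (adjusted p = 0.873 in limma). Calr3, the third calreticulin gene, differed by -0.05, Edem1, which directs misfolded glycoproteins to degradation, by -0.16, and Prkcsh, a glucosidase subunit, by -0.12. Within the calreticulin and calnexin family, the 5 genes therefore differed by -1.10 for Calr4, -0.25 for Clgn, -0.05 for Calr3, -0.01 for Canx and 0.08 for Calr. Calr3 was dim, with means of 5.01 in AP-2e null and 5.06 in wild-type VNOs, near the array medians. Its small difference therefore says little.

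Of 18 disulfide isomerases and oxidases, 0 passed and 1 had an unadjusted p under 0.05, Tmx3, a membrane-bound isomerase, at -0.16. Creld2 followed at -0.15 and Txndc11 at 0.19. P4hb, the classical protein disulfide isomerase, differed by -0.01, and the oxidases Ero1a and Ero1b by -0.07 and -0.04. Of 15 partners of the ER Hsp70, 0 passed and 2 were lower at an unadjusted p under 0.05: Manf, a secreted protein induced by ER stress, at -0.29, and Hyou1, a nucleotide exchange factor of BiP, at -0.22. The co-chaperone Dnajb11 followed at -0.21. Sdf2l1, a partner of Dnajb11 in the ER, had the lowest difference of the 143 genes, -0.38, with an unadjusted p of 0.0609; it was singled out once the values were known. The 8 prolyl isomerases and collagen chaperones lay between -0.11 (Fkbp2) and 0.15 (Fkbp14), with 0 at an unadjusted p under 0.05.

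Of 15 genes of ER-associated degradation, 0 passed and 1 had an unadjusted p under 0.05, Selenos, a selenoprotein of the retrotranslocation complex, at -0.23. Herpud1, a stress-induced component of that complex, differed by -0.18 and its ubiquitin ligase Syvn1 by 0.11. Of 18 sensors and transcription factors of the unfolded protein response, 0 passed and 0 had an unadjusted p under 0.05. By p the first were Atf6b, a relative of the sensor Atf6, at -0.21, Ppp1r15a, a phosphatase subunit that ends the translation block, at -0.12 and lower without overlap, and the membrane-bound factor gene Creb3l3 at -0.25. The sensor genes Ern1 (IRE1), Eif2ak3 (PERK) and Atf6 differed by -0.0047, -0.045 and 0.00032, Atf4 by -0.04 and Ddit3, the CHOP gene, by -0.25.

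The 26 genes of translocation and N-glycosylation lay between -0.15 and 0.14 and the 14 genes of ER shape and retention between -0.16 and 0.10, with 0 at an unadjusted p under 0.05 in both lists. By p the first were the signal peptidase subunits Spcs1 and Spcs3 at -0.13 and -0.12 and the oligosaccharyltransferase subunit Stt3b at -0.11, and, of the shape and retention list, Reep5 at -0.11, Rtn1 at -0.16 and Atl3 at 0.10. Of 16 genes of ER calcium, Rcn1, a calcium-binding protein of the lumen, was the only one with an unadjusted p under 0.05, at 0.13. Nucb2 followed at -0.13 and Nucb1 at -0.07. Itpr3, a calcium release channel, differed by 0.09 and Atp2a2, the calcium pump of the ER, by -0.03. For comparison, 20 chaperones outside the ER held 0 genes past the threshold and 0 at an unadjusted p under 0.05, with a median of -0.03, and its first genes by p were Cryab at 0.30, Dnajb1 at -0.13 and Dnaja2 at -0.09.

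**Figure D4:**
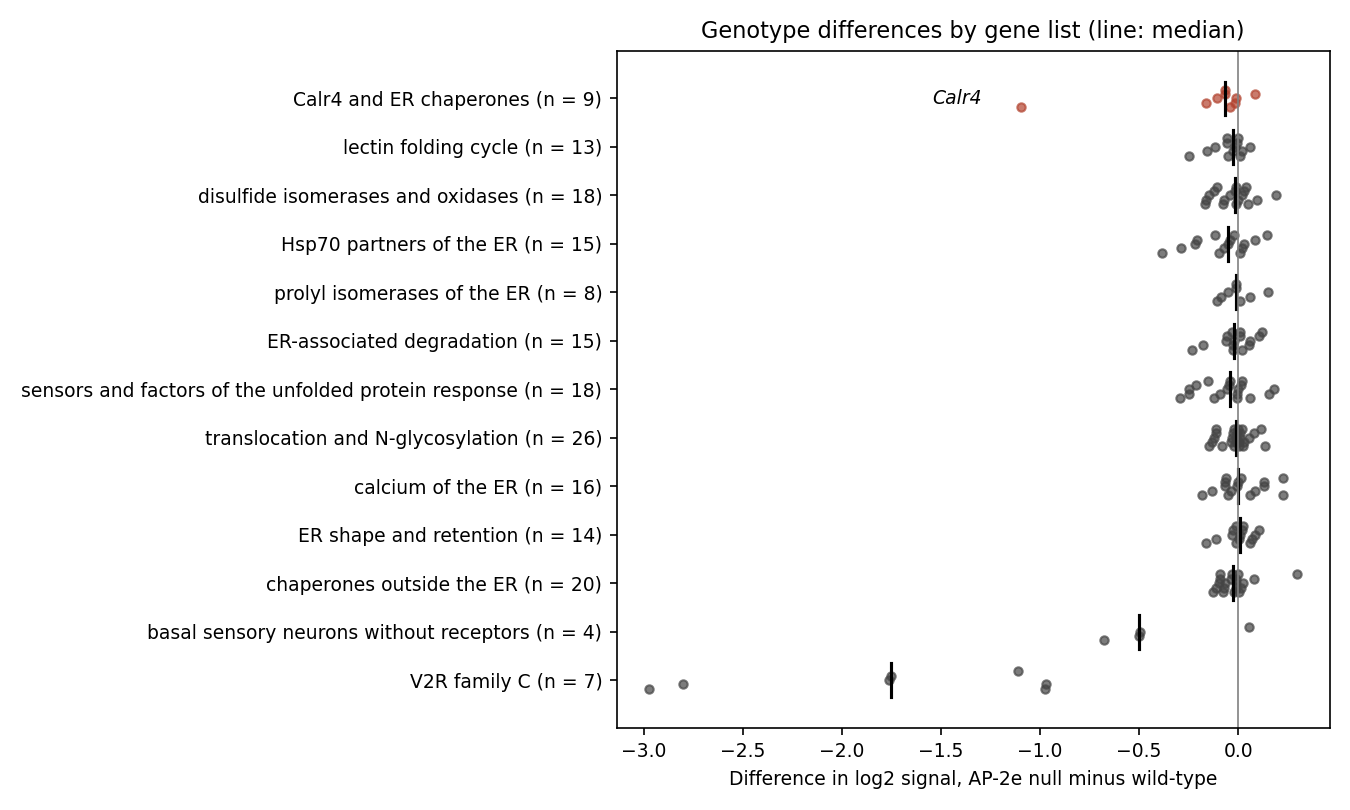
Difference in log2 signal, AP-2e null minus wild-type, of every measured gene by list (1 point per gene, black line at the list's median). Calr4 at -1.10 lies among the V2R family C genes, which run from -2.97 to -0.97. It lies away from the ER lists, whose genes run from -0.38 to 0.23 and do not include Cnpy1.

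Other measured genes with the promoter element were close between genotypes, though several of them were dim. Beside the 6 members, 29 genes held an ER stress response element in a promoter, of which 21 were measured. Among these 21, 0 passed in limma and 0 had an unadjusted p under 0.05. Their means were lower for 11 and higher for 10, with a median difference of -0.02 and a range of -0.32 to 0.26, all closer to 0 than the difference of Calr4. Creld2 and Dnajc3 were lower without overlap (-0.15 and -0.10), against 3.64% of all genes, and the rest overlapped. Several lay below the array medians of 4.997 to 5.079, where a difference could hardly show. Esp16 and Esp36, for example, had means of 1.73 and 2.23 in wild-type VNOs. Among the members with the element, Calr4 differed by -1.10 and the other 5 by -0.07 to 0.08.

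Other ER-rich cells were followed by their markers. The mean of 9 gland genes lay between 9.60 and 10.50 in AP-2e null VNOs, against 9.13 to 11.59 in wild-type VNOs, and overlapped. The mean of 6 plasma cell genes lay between 5.35 and 5.64 in AP-2e null VNOs, against 5.06 to 5.57 in wild-type VNOs, and overlapped. Of these 6 genes, 3 had a higher mean in AP-2e null VNOs (Pou2af1 at 0.58, Cd79a at 0.41 and Mzb1 at 0.30) and 3 a lower one (Jchain at -0.36, Sdc1 at -0.12 and Tnfrsf17 at -0.01). Pou2af1 and Mzb1 were higher without overlap, against 3.42% of all genes, and 0 of the 6 passed in limma. Their part in the values of the chaperones was not tested.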

How the data were processed

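The deposited table holds log2 signals per probe set and array. Per the submitters' processing notes, the authors used the Transcriptome Analysis Console and RMA (background correction, quantile normalization, probe set summary), with versions and settings not given in the sources used here. Quantile normalization can leave equal values on different arrays. Scanner files were not used here.

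Of 41345 probe sets, the platform annotation names 1 gene for 23521, several for 1814 and no gene for 16010. Entrez identifiers were matched to RefSeq (GRCm38.p6) for 23328, which changed 0 symbols. The brightest probe set of each gene by its mean was kept, which gave 22180 genes. No filter was set. Genotypes came from sample titles. The comparison used limma 3.58.1 in R 4.3.3 (lmFit, eBayes, 2-sided, no covariate) with Benjamini-Hochberg adjustment over all genes and a threshold of 0.05. Each difference is the AP-2e null mean minus the wild-type mean. The number of arrays limits the precision. Tested on simulated data of 22180 genes for AP-2e null against wild-type, 87 of 100 genes changed by 1 log2 unit and 96 of 100 changed by 2 were recovered, for genes that vary independently. These shares need not hold for the data themselves. There, 99 genes had a difference at or below that of Calr4, and 48 genes in all were called lower. Figures were made in Python 3.11.15 (matplotlib 3.10.9).

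Members and lists were chosen with earlier results of these data known. Named are all members, Tfap2e, up to 3 genes per ER list by p, the 5 genes nearest to Calr4 in profile and its 5 measured neighbours on each side. Other genes named from the lists, such as the sensors, were chosen for their role after their values were seen. The alternatives are other variance moderation, other probe set rules, leaving out the dimmest 30% of genes, median, quantile and loess scaling, array weights, a replicate block and leaving out each array. The count over the ER lists in these fits and the quantities set against Omp, Gnao1 and V2R family C were chosen after seeing the data.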

Additional observations from a re-analysis of the deposited data

How the results depend on the processing

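Calr4 kept its direction in all 15 alternatives. Its side of the threshold changed in 1 of them, and with single arrays left out its difference lay between -1.18 and -0.93, with adjusted p between 0.0384 (without wild-type replicate 3) and 0.711. With all 6 arrays it lay between -1.13 and -1.02, with adjusted p between 0.0635 (array weights) and 0.306 (replicate block). The count of 50 genes past the threshold was 22 with the replicate block and between 17 and 32 with single arrays left out, and the cause was not tested. Of the members, 0 other than Calr4 passed in any of the 15 alternatives.

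Small differences changed sign. That of Pdia6 was 0.00267 with repeated quantile normalization and between -0.0454 and 0.0260 with single arrays left out. That of Dnajb9 was 0.0364 with array weights and between -0.158 and 0.0247 with single arrays left out, and that of Canx then lay between -0.0415 and 0.00903. Calr4 minus Calr lay between -1.28 and -1.03 with single arrays left out. Paired by replicate number, it was -1.18 with an exact p of 0.25, the smallest that 3 pairs allow. Replicates of the same number deviated together little (r = 0.040, 0.110 and 0.019 across genes for numbers 1, 2 and 3). Whether they share more than a number cannot be told from this, since the labels give no pairing. Filters on low signal cost 2 of the 143 ER genes.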
